A study of Rattus norvegicus with 15 samples.

Results

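Octoploid hepatocytes, sorted by a DNA content of 8c, were compared with diploid hepatocytes of 2c from the same cell isolations. The comparison holds 10 of the 15 arrays of the series, the 5 titled 8c and the 5 titled 2c, and each 8c array was paired with the 2c array of the same experiment number. All cells came from female Wistar rats, which were 12, 14, 6, 5 and 6 weeks old in experiments 1 to 5. They were stained with the DNA dye Hoechst and sorted by flow cytometry, without any other treatment, and their total RNA was amplified, labelled with 1 dye and read on a rat gene expression array. A 4c fraction of each experiment, the other 5 arrays, entered the fit only to estimate the spread. DNA content alone does not separate a cell with 8 chromosome sets from a tetraploid cell that has replicated its DNA, and how many animals were used per experiment is not given in the sources used here.

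Hepatocytes become polyploid as the liver matures, when cells finish a cycle without dividing or divide their nucleus without dividing the cell body. The polyploid cells remain functional, and they secrete the plasma proteins and carry out the intermediary metabolism of the organ beside their diploid neighbours. The position of a hepatocyte between portal and central vein also sets which enzymes it makes, since signals such as Wnt reach the central side and oxygen and hormones the portal side. A level below is the log2 of an array's signal minus that array's 75th percentile, so 0 is a bright probe and a difference of 1 is a 2-fold change within the RNA of the fraction, not per cell. In sorted bulk RNA, fewer cells of a type and less RNA per cell cannot be told apart.

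The label was first checked against 30 genes that define hepatocytes, of which 0 passed the test (1 at an unadjusted p under 0.05, limma; median log2 difference -0.02), and the albumin gene Alb had a mean level of 7.10 ± 0.33 on the 2c arrays, and of 6.96 ± 0.31 on the 8c arrays (SD, n = 5 each; log2 difference -0.14, SE 0.14, adjusted p = 0.689, limma). Some markers of other liver cells were lower in 8c: 19 of 41 Kupffer and myeloid, 22 of 44 stellate and fibroblast, 11 of 30 endothelial and 3 of 11 cholangiocyte markers passed as lower, and 0 as higher. Of all tested features 1.58% passed as lower. The median of the cholangiocyte markers was 0.05. These marker lists hold 91, 96, 86 and 27 genes, and 11, 12, 10 and 1 of the tested members reached the filter only through the 2c arrays, which favours a fall. Of the members above background on all 10 arrays, 2 of 16, 7 of 23, 1 of 15 and 2 of 5 passed as lower. Among 12 lymphocyte, 6 MHC class II, 3 erythroid, 3 mesothelial, 2 platelet and 1 neutrophil genes, 0 passed. At an unadjusted p under 0.05 (limma), 2 lymphocyte, 4 MHC class II and 1 erythroid gene were lower and 1 mesothelial gene was higher. On the 2c arrays 38 to 41 of the Kupffer and myeloid markers were well above background, and on the 8c arrays 21 to 38. The signal summed over that list ranged on the log2 scale from 7.37 to 7.92 in 2c and from 7.20 to 7.84 in 8c. The corresponding ranges were 5.30 to 6.05 and 5.29 to 5.51 for stellate and fibroblast markers, 3.38 to 4.42 and 3.50 to 4.32 for endothelial markers, and 0.18 to 1.20 and -0.11 to 0.83 for cholangiocyte markers. Such linear sums follow the few brightest members of a list and do not show how most markers changed. The median level of the Kupffer and myeloid markers was -3.79 in 2c and -5.45 in 8c. Median log2 differences were -1.49 for that list, -1.34 for stellate and fibroblast and -0.38 for endothelial markers. The Kupffer cell lectin gene Clec4f remained well above background on 4 of 5 8c arrays and was lower there by at least 32.4-fold. Mki67, a marker of cycling cells, was 5.18-fold higher (adjusted p = 0.00129), and the pericentral enzyme gene Glul 9.47-fold lower (adjusted p = 0.00101). Transcripts of pancreatic acinar cells were abundant on both arrays of experiments 1 and 2 and on the 8c array of experiment 3, with median levels from -2.33 to 3.78 against -7.19 or lower on the 5 remaining 2c and 8c arrays. Of those 32 genes 0 passed, and 2 did at an unadjusted p under 0.05.

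In all, 139 genes rose and 267 fell in 8c out of 16925 tested features, which is 0.821% higher, 1.58% lower and 2.4% in either direction (limma, Benjamini-Hochberg adjusted p under 0.05). Rises made up 34.2% of these calls, but 47.2% with quantile normalization, 46.7% with median scaling and 54.1% when the percentile was taken over the full probe set. The cell cycle, zonation and other-cell-type lists already held 130 of these 406. Outside those lists, 188 called genes had a symbol, and 43 of them rose and 145 fell. Of the 121 that were well above background on all 10 arrays, 31 rose and 90 fell. The same sign in all 5 experiments was seen for 118 of them, against 15.3% of all tested features. A call in a fit paired by experiment favours such agreement, so this share is a description. No rise among the 31 reached 2-fold, while 17 of the 90 falls did. The largest fall among them was 6.48-fold and the largest rise 1.82-fold.

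These counts depend on the block and on a few arrays. Without the replicate block 6 genes rose and 34 fell, and with the 2c and 8c arrays alone 60 and 45. Without the arrays that carried acinar transcripts, which leaves only experiments 4 and 5 with both fractions, 0 and 0 passed. At an unadjusted p under 0.05 (limma), 520 and 697 did. All 406 kept their direction, but they had been called with the remaining arrays included, which favours the same sign. Without experiments 1 and 2 the counts were 2 and 7. Rises and falls numbered 57 and 112 without experiment 1, 114 and 121 without experiment 2, 78 and 160 without experiment 3, 82 and 191 without experiment 4, and 49 and 51 without experiment 5. The arrays lay on 2 slides, with both fractions of experiments 1 and 2 on slide 1 and of experiments 4 and 5 on slide 2. Experiment 3 had its 2c array on slide 1 and its 8c array on slide 2, so its difference cannot be told apart from slide. Within slide 1 or slide 2 alone 0 genes passed in either direction, while 604 and 925, and 560 and 1074, did at an unadjusted p under 0.05 (limma). The log2 differences within slide 1 and slide 2 were 1.07 and 0.78 for Slc6a6, -2.93 and -2.28 for Irag1, -2.18 and -1.89 for Car2 and -2.59 and -1.03 for Fmo1. Of the 92 called genes among those named in the text, 18 passed in each of the 5 fits without 1 experiment, among them the falls Irag1, Car2, Eln, Cryab, Fmo1, Ak1, Npr1, Dpp7, Csrp2, Akr1c1, Acat2, Axin1 and Glul and the 4 rises Tgif1, Cdkn3, Tubb6 and Mki67. The other 74 lost their call in at least 1 of them. The call of Car2 alone was kept in every alternative that called any gene.

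Sequences around the transcription start are shown for the largest rises and falls that have an entry in the RefSeq promoter table (GRCr8), 250 bases before to 50 after the start, because these genes carry the contrast described next. Capitals mark matches on either strand to 6 short motifs. The letters TTTGAA are the CHR element of cell cycle genes, and CCAAT is the box bound by NF-Y. The letters TTCCCGC were taken for E2F and CTTTGA for TCF/LEF, whose last 5 letters begin the CHR element when they overlap. The letters TCACCCCAC were taken for the sterol regulatory element, and TGACNNNGC for the antioxidant response element.
Slc6a6: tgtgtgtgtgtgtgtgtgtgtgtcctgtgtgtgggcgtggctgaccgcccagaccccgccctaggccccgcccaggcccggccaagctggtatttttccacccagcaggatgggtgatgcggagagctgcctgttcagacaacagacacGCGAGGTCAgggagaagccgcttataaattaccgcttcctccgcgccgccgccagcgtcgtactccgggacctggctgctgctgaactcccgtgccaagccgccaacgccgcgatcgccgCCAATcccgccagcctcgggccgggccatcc
Igfbp2: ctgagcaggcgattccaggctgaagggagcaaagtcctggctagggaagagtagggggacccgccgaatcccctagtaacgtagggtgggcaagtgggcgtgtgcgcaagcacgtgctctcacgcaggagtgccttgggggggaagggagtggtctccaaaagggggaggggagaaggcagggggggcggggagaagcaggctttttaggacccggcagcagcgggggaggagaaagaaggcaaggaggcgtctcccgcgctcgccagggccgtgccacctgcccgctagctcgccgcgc
Irag1: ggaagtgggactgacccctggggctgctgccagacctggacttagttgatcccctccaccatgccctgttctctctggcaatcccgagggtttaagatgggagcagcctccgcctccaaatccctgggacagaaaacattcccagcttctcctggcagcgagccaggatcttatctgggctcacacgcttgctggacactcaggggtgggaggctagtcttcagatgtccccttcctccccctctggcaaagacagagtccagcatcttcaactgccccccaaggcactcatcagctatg
Fmo1: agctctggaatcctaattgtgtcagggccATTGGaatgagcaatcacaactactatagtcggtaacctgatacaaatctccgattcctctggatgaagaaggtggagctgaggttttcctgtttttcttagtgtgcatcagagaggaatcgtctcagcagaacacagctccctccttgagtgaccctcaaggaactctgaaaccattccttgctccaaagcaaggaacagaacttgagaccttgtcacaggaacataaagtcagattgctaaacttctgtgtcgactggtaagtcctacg

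The Slc6a6 window lies at chr4:125752252-125752551, plus strand, and the Igfbp2 window at chr9:81864561-81864860, plus strand. The Irag1 window lies at chr1:174528802-174529101, minus strand, and the Fmo1 window at chr13:77747617-77747916, minus strand. Counted from 1 at the 5′ end of the printed window, Slc6a6 held a TGACNNNGC match on the minus strand at bases 150 to 158 and CCAAT at bases 270 to 274. Fmo1 held CCAAT on the minus strand at bases 30 to 34, and the Igfbp2 and Irag1 windows held none of these letters. Over the whole contrast, TTTGAA stood in 41 of 87 promoters of genes that rose (47.1%), in 18 of 172 of genes that fell (10.5%), in 12.4% of the 9649 promoters of tested genes and in 18.1% of all 27457. Outside the reported and marker lists, most of whose rising members are mitotic genes, the share among genes that rose was 8 of 38 (21.1%). CCAAT stood in 16 of those 38 (42.1%). Over the whole contrast it stood in 57.5% of the promoters of genes that rose, 38.4% of those that fell and 38.8% of those of tested genes. CTTTGA stood in 17.2%, 16.3% and 12.4% of the same sets, TTCCCGC in 11.5%, 5.23% and 7.84%, TGACNNNGC in 18.4%, 16.9% and 14.6%, and TCACCCCAC in 2.3%, 0.0% and 0.466%. These are counts of letters, not of bound sites.

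Among genes outside the reported and marker lists that were measured on all 10 arrays, the largest rise was that of Slc6a6, the taurine transporter gene. Its levels in experiments 1 to 5 were -0.73, -0.44, 0.22, -0.11 and 0.37 in 2c and 0.04, 0.62, 1.13, 0.83 and 0.99 in 8c. Each 8c array lay above the 2c array of its experiment, by 0.63 to 1.05, while the groups overlapped because experiment 1 was low in both. The fitted rise was 1.82-fold (log2 difference 0.86, SE 0.16, adjusted p = 0.0187, limma), and the other probes of the gene gave 0.76 and 0.89. In rn4, the assembly of the files, its probe spans bases 125945732 to 125945791 of chromosome 4.

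Igfbp2 encodes a plasma protein of hepatic origin that binds insulin-like growth factors. Its 2c levels were -0.83, -1.06, -0.79, 0.29 and -0.43, and its 8c levels 0.43, -0.46, 0.03, 0.60 and 0.66. The rise was largest in experiment 1 (1.26) and smallest in experiment 4 (0.31), where the 2c array was already high. It amounted to 1.76-fold (SE 0.14, adjusted p = 0.014), and the 4c arrays, which share the 2c controls, lay 0.80 above 2c (adjusted p = 0.0346).

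Genes of iron handling were among the rises. Hamp, which encodes hepcidin, the hormone that restrains the release of iron into plasma, had levels of 4.38, 5.03, 5.06, 4.48 and 5.06 in 2c and 5.18, 5.88, 5.75, 4.86 and 5.44 in 8c. All 5 pairs rose, by 0.38 to 0.85, and the groups overlapped (1.54-fold, SE 0.09, adjusted p = 0.00636). Steap3, an iron reductase of endosomes, was dim, at -3.72, -3.71, -3.35, -3.46 and -3.74 in 2c and -2.94, -2.97, -2.63, -3.26 and -3.15 in 8c. Its groups did not overlap (1.52-fold, SE 0.10, adjusted p = 0.0104), as was so for 1.35% of all tested features. These were the 2 called genes of 33 tested for iron, copper and zinc, and the median of that list was 0.03.

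Cdkn1a, the p21 inhibitor of cyclin-dependent kinases, had 2c levels from -2.22 in experiment 4 to 0.42 in experiment 3, and 8c levels of 0.11, -0.61, 0.94, -0.82 and -0.33. The experiments differed by more than the fractions, with experiment 3 highest and experiment 4 lowest in both, and the pairs rose by 0.40 to 1.40 (1.69-fold, SE 0.14, adjusted p = 0.0236). It was the only called gene of 26 p53 targets, whose median was -0.03. Tgif1, a homeodomain repressor of TGF-beta signalling, rose 1.47-fold (SE 0.07, adjusted p = 0.00428), from levels of -1.47 to -0.57 in 2c to -1.03 to -0.05 in 8c. Among the named genes measured on all 10 arrays, it was the only rise besides Mki67 that passed in each fit without 1 experiment.

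The remaining rises among the 15 largest came from genes of several functions. Fbp2, a fructose bisphosphatase of the muscle type, rose 1.5-fold, from levels between -4.07 and -1.24 to between -3.81 and -0.66, with experiment 4 lowest in both fractions. Cyp4f39, a cytochrome P450 gene, rose 1.49-fold, and Ddhd1, a phospholipase gene, 1.44-fold, with log2 differences of 0.53 on the probe used and 0.36 and 0.15 on others. Arl6ip1, a membrane-shaping protein of the endoplasmic reticulum, rose 1.4-fold, and its second probe gave a log2 difference of 0.10 against 0.48. Ctnnbip1, which inhibits the binding of beta-catenin to TCF, rose 1.39-fold without overlap (2c -1.82 to -1.39, 8c -1.34 to -0.98). Vangl1, a planar polarity protein, rose 1.38-fold, with 0.18 on its other probe against 0.46. Mmd2 rose 1.37-fold without overlap and the asparaginase gene Aspg 1.36-fold. Adjusted p for these 8 ranged from 0.00974 to 0.0466. Ddx11, a DNA helicase gene, was 1.76-fold higher on the probe used, but its other probe gave a log2 difference of -0.98, so its direction is unsettled.

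**Figure D1:**
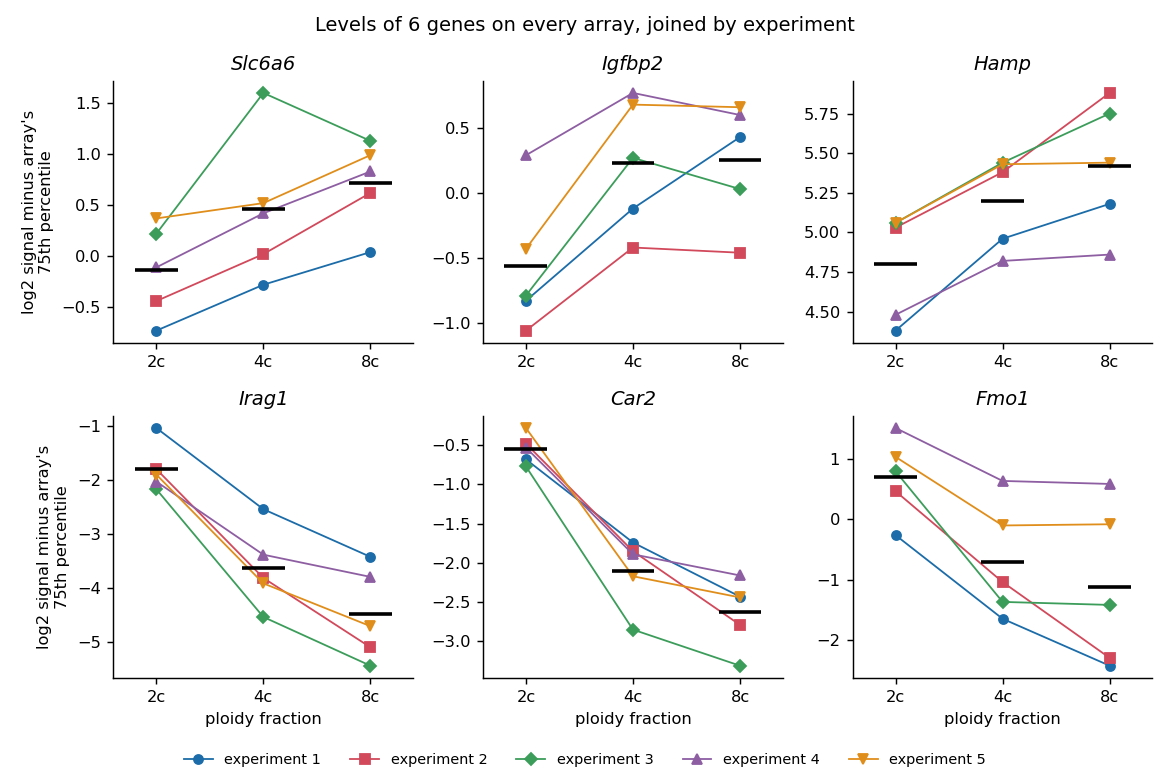
Levels of 3 genes that rose (upper row) and 3 that fell (lower row) on all 15 arrays; the vertical axis is log2 signal minus the array's 75th percentile, lines join the fractions of an experiment, and black bars are group means. The differences between 2c and 8c run the same way in all 5 experiments, and for Irag1 and Car2 the groups do not overlap.

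Among the falls, those of Irag1, Car2, Eln and Cryab were larger than 4-fold. Irag1, a regulator of calcium release that is a target of cGMP-dependent kinase, had 2c levels of -1.04, -1.80, -2.17, -2.03 and -1.90 and 8c levels of -3.42, -5.09, -5.43, -3.79 and -4.70. Every 8c array lay below every 2c array (6.48-fold lower, log2 difference -2.70, SE 0.20, adjusted p = 0.000716), and the probe lies on chromosome 1, 168627363 to 168627422. Car2, the cytosolic carbonic anhydrase gene, stood at -0.68, -0.48, -0.77, -0.53 and -0.28 in 2c, a narrow range, and at -2.43, -2.79, -3.31, -2.16 and -2.44 in 8c. It was 4.22-fold lower, again without overlap (log2 difference -2.08, SE 0.15, adjusted p = 0.000716), with a probe on chromosome 2, 88077739 to 88077798.

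Cryab, a small heat shock protein, had levels of -1.77, -2.27, -2.71, -2.82 and -1.88 in 2c and -3.24, -4.32, -4.65, -4.56 and -4.70 in 8c. It was 4.02-fold lower with no overlap (SE 0.19, adjusted p = 0.00101), and it was the only called member of 45 cytosolic chaperone genes, whose median was 0.02. Eln, which encodes elastin, was 4.11-fold lower (SE 0.20, adjusted p = 0.00123). Its levels differed widely between experiments, at -3.91, -3.03, -2.39, -0.98 and -0.99 in 2c and -5.57, -4.66, -5.33, -2.69 and -3.24 in 8c, with experiments 4 and 5 high in both fractions. Elastin is made by fibroblasts and smooth muscle cells, and the 22 lower markers of 44 for stellate cells and fibroblasts stand beside this fall; their part in it was not tested.

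Fmo1, a flavin monooxygenase that oxidises drugs, had 2c levels of -0.26, 0.47, 0.80, 1.52 and 1.04 and 8c levels of -2.43, -2.30, -1.42, 0.59 and -0.08. The pairs fell by 0.93 to 2.77, least in experiments 4 and 5 (3.58-fold, SE 0.25, adjusted p = 0.00537). Npr1, the receptor of atrial natriuretic peptide, was 2.7-fold lower without overlap (2c -2.73 to -1.53, 8c -4.34 to -3.34; adjusted p = 0.00408). Smpd3, a neutral sphingomyelinase, was 2.15-fold lower, also without overlap (2c -3.33 to -2.53, 8c -4.52 to -3.49; adjusted p = 0.00628). Dpp7, a lysosomal and secreted peptidase, was 2.63-fold lower, and Csrp2, a LIM protein known from smooth muscle and stellate cells, 2.37-fold on the probe used, with a log2 difference of -1.24 on another. Ak1, an adenylate kinase, was 2.71-fold lower, but the files place its probe on chromosome 2 while RefSeq places the gene on chromosome 3, so the name is uncertain. 6430548M08Rikl, a gene with no assigned role, was 2.37-fold lower without overlap. Dpysl2, a microtubule-binding protein, was 2.23-fold lower on the probe used and had a log2 difference of -0.17 on its other probe.

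Adjusted p for the 15 largest falls ranged from 0.000716 to 0.0358 (limma). Of these falls 7 did not overlap between groups, as did 3 of the 15 largest rises and 1.35% of all tested features. Both sets were picked for large differences, and the falls were the larger, which favours a lack of overlap. The 4c mean lay between those of 2c and 8c for all 15 falls and for 12 of the 15 rises, and 12 falls and 6 rises also passed for 4c against 2c, a comparison that uses the same 2c arrays. Experiment 4, with the youngest animals, had the smallest difference for 10 of the 15 falls and 6 of the 15 rises. Its medians were -0.95 and 0.38, against -1.28 to -1.93 and 0.57 to 0.69 in the other experiments. A test of whether the difference between 8c and 2c depended on age, 12 and 14 weeks against 5 and 6 weeks, found 0 of 16925 features (0%; limma interaction, lowest adjusted p = 0.736), and 795 at an unadjusted p under 0.05. The experiments at 12 and 14 weeks were also the only ones wholly on slide 1, so age and slide cannot be told apart.

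**Figure D2:**
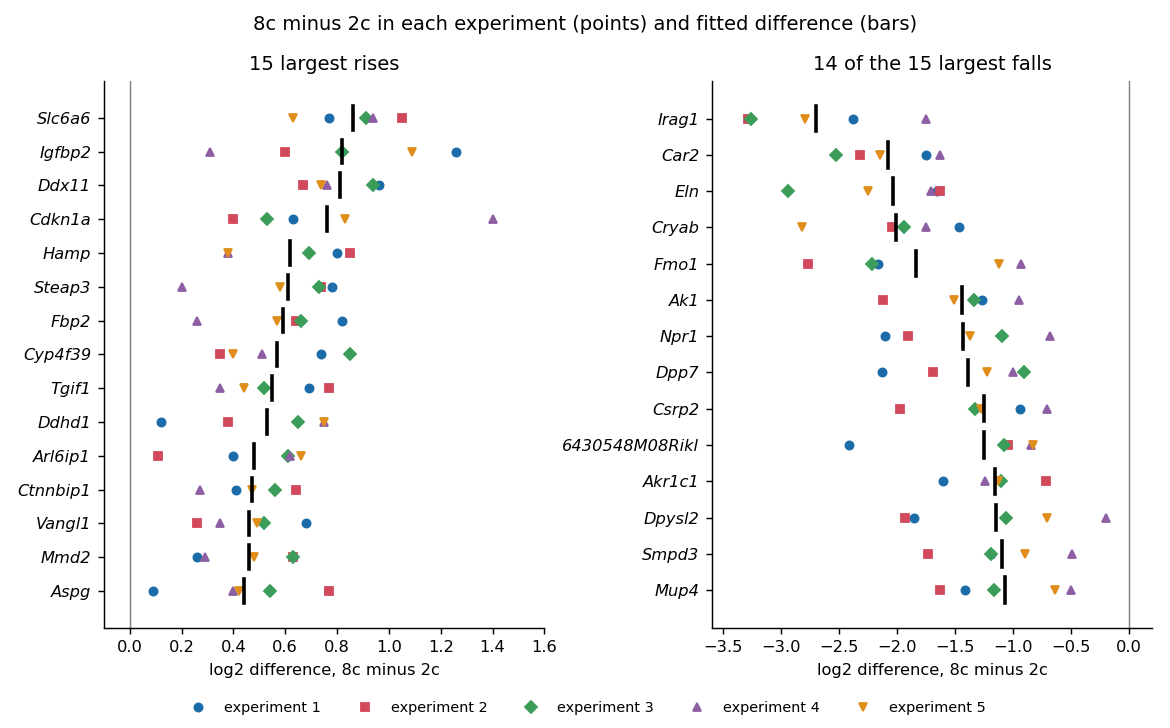
Differences between the 8c and the 2c array of each experiment (points, log2 scale) and the fitted difference (black bars) for the 15 largest rises and 14 of the 15 largest falls, all of them well above background on all 10 arrays. The rises lie between 0.44 and 0.86 and the falls between -2.70 and -1.07, and experiment 4 gives the smallest fall for 9 of the 14 genes.

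Genes that were not well above background on every array of their lower fraction were given as bounds, with dim arrays at the array's lowest level well above background. Where a dim array's own signal already exceeded that level, the bound equals the fitted fold, which is then given with the number of arrays above background. Where the brighter fraction also held a dim array, the value is no bound, and the arrays above background in both fractions are given. Some genes reached the filter of 5 arrays only through the brighter fraction, with fewer than 5 of the other 10 arrays above background, which favours a difference. This was so for 93 of the 406 calls, and among the named genes for 16: Anxa2, Anxa3, Anxa5, Arhgef39, Bard1, Cdkn2c, Cfd, Igf2bp2, Il1a, Lgals3, Pilra, Pltp, Rab32, Rarg, Slc43a2 and Tmem204. The values of these 16 are a description. Among the 6 such rises, Cdkn3, a phosphatase that acts on cyclin-dependent kinases, had 2c levels of -5.87, -7.75, -5.32, -4.21 and -5.48, with 3 of 5 arrays above background, and 8c levels of -2.77, -4.99, -2.51, -1.76 and -2.26. It was at least 6.43-fold higher (adjusted p = 0.00129), with experiment 2 lowest in both fractions. Tubb6, a beta-tubulin, was at least 5.12-fold higher (2c -7.76 to -4.27, 8c -4.75 to -2.11; adjusted p = 0.00101), and Arhgef39, a guanine nucleotide exchange factor, at least 4.68-fold. In experiment 2 the Arhgef39 rise was 0.69, against 1.90 to 4.13 in the others. Tcf19 rose 1.63-fold and Tmem125 1.97-fold, each with 4 of 5 2c arrays above background. Mfsd4a rose 1.47-fold with 3 of 5, and its sign turned with normexp background correction (-0.07). Mki67 was likewise lowest in experiment 2, at -5.81 in 2c and -3.74 in 8c. Whether the fraction of cycling cells accounts for Cdkn3, Tubb6 and Arhgef39 was not tested.

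The 8 largest falls given as bounds included several genes known from myeloid or stromal cells. Cfd, complement factor D, had 2c levels of -1.64, -5.19, -2.97, -5.20 and -2.97 and was well above background on 1 of 5 8c arrays (at least 9.47-fold lower). Lgals3, galectin 3 of macrophages, had 2c levels of -1.24, -4.76, -2.47, -4.57 and -2.72 and was at least 9.31-fold lower, with 2 of 5 8c arrays above background. Anxa3, an annexin, was at least 9.1-fold lower, the myeloid receptor gene Pilra at least 9.09-fold, and Lrg1, a secreted leucine-rich glycoprotein, at least 10.8-fold. The bound was 7.29-fold for Tmem204, 10.9-fold for Ccdc80 and 6.58-fold for Pltp, a plasma phospholipid transfer protein. Of the 8, all but Lrg1 and Ccdc80 reached the test only through the 2c arrays. All 8 were high on the 2c array of experiment 1 and low on those of experiments 2 and 4. The difference was largest in experiment 1 for all 8, with medians of -6.96, -2.65, -2.77, -2.09 and -4.60 in experiments 1 to 5. The medians of the Kupffer and myeloid markers rank the 5 experiments in the same order (1, 5, 3, 2 and 4), at -2.84, -1.19, -1.41, -0.60 and -1.60, and those of the stellate and fibroblast markers were -2.10, -0.50, -1.06, -0.85 and -1.07. The part of these cells in the 8 falls was not tested.

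**Figure D3:**
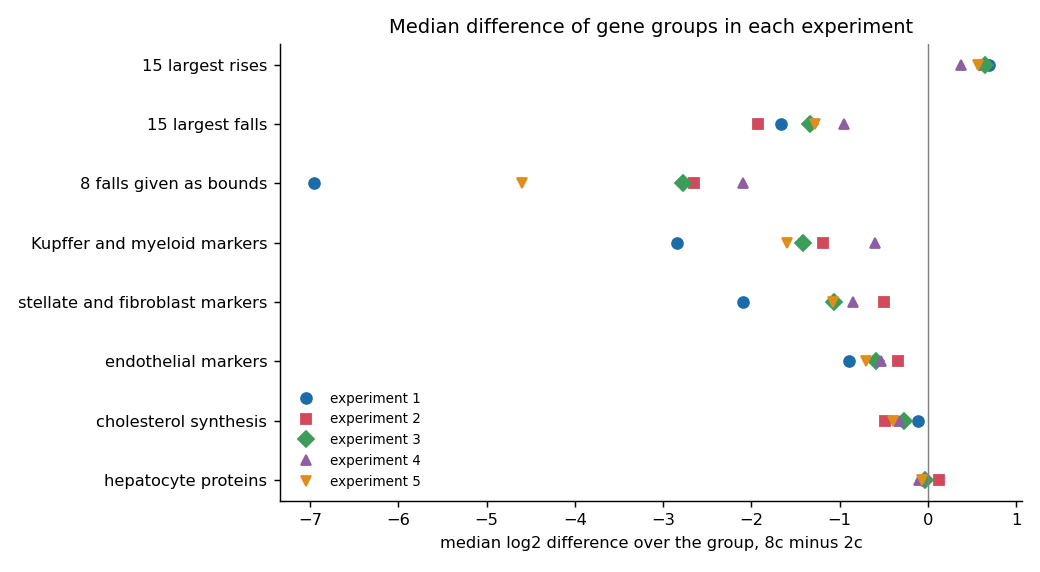
Median log2 difference between 8c and 2c over groups of genes in each of the 5 experiments (points). The 8 falls given as bounds and the Kupffer and myeloid markers are farthest from 0 in experiment 1, at -6.96 and -2.84, while the 15 largest rises and falls spread less and hepatocyte proteins stay near 0.

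Genes of hepatocyte function were then read through 67 lists with at least 5 tested members. Together they held 2565 tested genes, of which 16 rose and 51 fell, 2.61% against 2.4% of all features. In 30 lists 0 genes passed (limma; of their 1251 genes, counted once per list, 115 were higher and 76 lower at an unadjusted p under 0.05), and in 66 the median lay within 0.15 of 0, where the median over all tested features was -0.02. The exception was cholesterol synthesis, with 0 of 25 genes higher, 9 lower and a median of -0.31. This holds from 0 under the scaling used and with quantile normalization. With median scaling and with the percentile of the full probe set, histones (0.19 and 0.23) and the cytosolic ribosome (0.17 and 0.21) also lay beyond 0.15. Relative to the median over all tested features those lists stood at 0.17 and 0.16 under the scaling used, and cholesterol synthesis at -0.29.

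Acat2, which condenses acetyl-CoA in the cytosol at the head of that pathway, had 2c levels of 1.21, 1.19, 1.57, 1.71 and 2.41 and 8c levels of 0.68, 0.46, 0.99, 1.19 and 1.79. The pairs fell by 0.51 to 0.73, so that the difference was steadier than the level itself (1.51-fold, SE 0.06, adjusted p = 0.00129), although its other probes gave smaller differences of -0.12 to -0.49. Msmo1, a sterol methyl oxidase, stood at 3.70, 3.04, 3.69, 4.13 and 4.66 in 2c and 3.15, 1.90, 3.04, 3.79 and 4.00 in 8c (1.59-fold lower, adjusted p = 0.00677). Sqle, the squalene epoxidase, was 1.51-fold lower. Other falls were those of Mvd, Hmgcs1, Sc5d, Hsd17b7 and Tm7sf2, at 1.24-fold to 1.45-fold. The list's median was below 0 in each experiment, from -0.115 in experiment 1 to -0.48 in experiment 2. The count fell to 0 without the replicate block (median -0.31), to 1 with the 2c and 8c arrays alone, to 0 when the arrays carrying acinar transcripts were left out (median -0.35) and to 1 without experiment 5 (median -0.33). Of the 17 members with a promoter entry, 14 held CCAAT (82.4%, against 38.8% of tested genes). The letters TCACCCCAC stood in 0 of the 17, but in only 0.466% of the promoters of tested genes, so 17 promoters are too few to compare. Lipogenesis, the neighbouring pathway, had 0 of 32 called (1 higher and 7 lower at an unadjusted p under 0.05, limma) and a median of -0.13. Within slide 1 and slide 2 the median of the cholesterol list was -0.30 and -0.33.

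Enzymes of drug and ester metabolism gave 5 falls and 0 rises of 59, with a median of -0.09, and most of the falls were in families of near-identical genes. In the carboxylesterase 1 family, which hydrolyses esters and drugs, Ces1c stood at 4.98, 5.57, 5.30, 5.61 and 5.42 in 2c and 4.28, 4.27, 4.51, 5.49 and 4.91 in 8c. It was 1.6-fold lower (SE 0.14, adjusted p = 0.0348), least in experiment 4. Ces1d and Ces1dl1 had log2 differences of -0.63 and -0.94 and passed, while Ces1e (-0.37, adjusted p = 0.0707, limma) and Ces1f (-0.15) did not. Of 7 tested genes of the carboxylesterase 2 family 0 passed, and 0 did at an unadjusted p under 0.05 (limma). Of 8 aldo-keto reductase 1C genes, which reduce steroids and carbonyls, 4 fell. Akr1c15 fell by 1.94 on the log2 scale (SE 0.26, adjusted p = 0.00428), with 4 of 5 8c arrays above background, and Akr1c1 stood at -3.44, -2.94, -2.13, -2.43 and -1.15 on the 2c arrays and at -5.05, -3.66, -3.25, -3.66 and -2.28 on the 8c arrays. Akr1c12 and Akr1c12l1 had -0.63 and -0.54, while Akr1c13, Akr1c14, Akr1c19 and Akr1c2 had 0.01, -0.30, 0.15 and 0.09 and did not pass. The deposited files exchange the names Akr1c12 and Akr1c13 relative to the RefSeq names used, so which of them fell depends on the naming. Their probes all lie on chromosome 17.

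The Nat8 family of acetyltransferases had 3 falls among 4 genes, Nat8 (-0.68, adjusted p = 0.00782), Nat8f2 (-0.73, adjusted p = 0.00636) and Nat8f1 (-0.33, adjusted p = 0.0263), and Nat8b did not pass (-0.04). The lipocalins named Mup or Obp are carriers of odorants and pheromones, some of which the rat liver secretes under sex and growth hormone control. They had 4 falls among 8. Mup5 (-1.62, adjusted p = 0.0511, limma), Mup4l3 (-1.15), Mup4l1 (-1.12) and Obp2b (0.05) did not pass. The probes of Obp1f and Obp2b lie on chromosomes X and 3, those of the others on chromosome 5. Mup4 stood at -3.59, -2.45, -3.16, -5.36 and -4.27 in 2c and -5.01, -4.07, -4.33, -5.86 and -4.91 in 8c (2.1-fold lower, adjusted p = 0.0121), and Obp3, Mup4l4 and Obp1f had log2 differences of -1.20, -1.26 and -0.94, with 4, 3 and 3 of 5 8c arrays above background. Cd36, the fatty acid translocase, and Cd36l1 fell by 0.56 and 0.79 on the log2 scale (adjusted p = 0.0201 and adjusted p = 0.015). These families were singled out after their values were seen, and probes may take up transcripts of near-identical copies, so members cannot be counted as separate measurements.

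**Figure D4:**
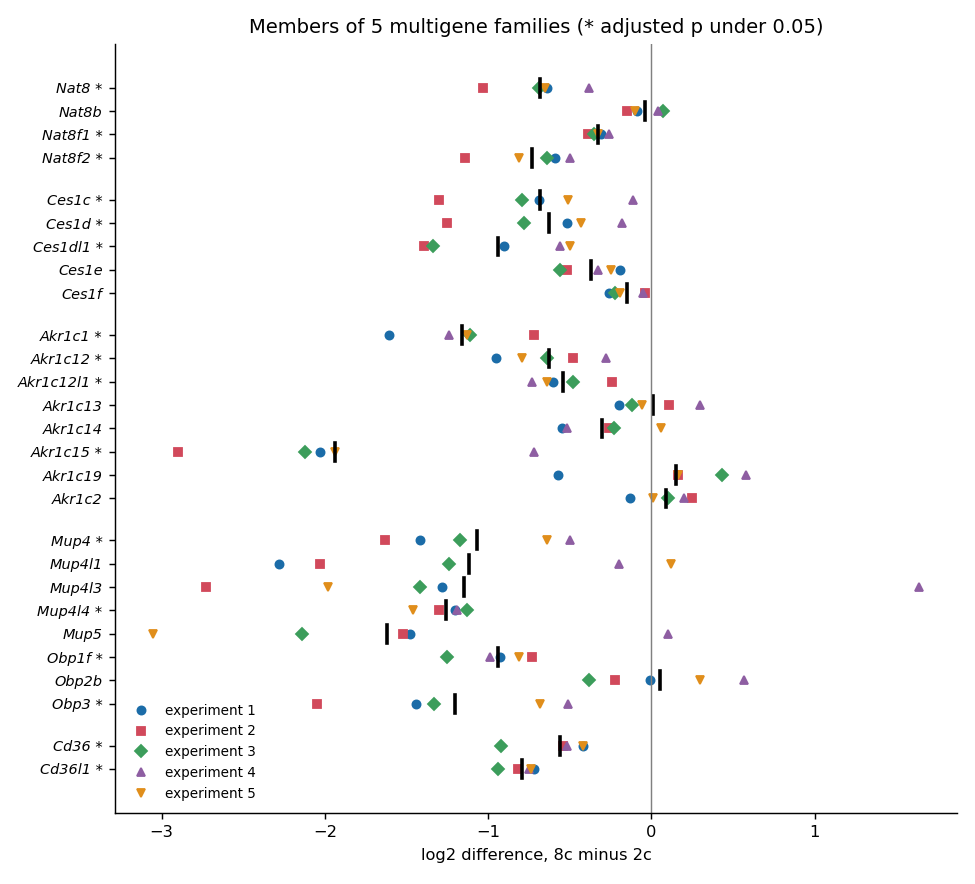
Differences between 8c and 2c in each experiment (points, log2) and the fitted difference (black bars) for the tested members of 5 multigene families; an asterisk marks adjusted p under 0.05. Members with falls stand beside members near 0, as with Akr1c1 at -1.16 and Akr1c2 at 0.09.

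Each signalling list gave few calls. Of 34 Wnt pathway genes 1 rose, Vangl1, and 2 fell (median -0.06). Axin1, the scaffold of the complex that degrades beta-catenin, stood at 0.03, 0.43, 0.53, 0.11 and 0.56 in 2c and -0.56, -0.43, -0.64, -0.88 and -0.51 in 8c. Its groups did not overlap (1.92-fold lower, SE 0.11, adjusted p = 0.00342). Apcdd1, a membrane inhibitor of Wnt signalling, was at least 3.33-fold lower (adjusted p = 0.00929). Of 26 Hippo pathway genes 3 fell and 0 rose (median -0.04), among them Ajuba and Ccn1 with log2 differences of -0.90 and -0.70. Crim1, the third, had levels of -0.85 and -0.84 in experiment 1, where 2c and 8c were alike, and fell by 0.71 to 1.99 in the others. The growth factor receptor gene Fgfr1 was 1.63-fold lower and the vasopressin receptor gene Avpr1a 1.34-fold. Rarg, a retinoic acid receptor, was 2.09-fold lower, with 4 of 5 2c and 2 of 5 8c arrays above background. It reached the filter only through the 2c arrays and was the only call among 38 listed nuclear receptors. That list leaves out the receptor gene Nr1i3, which was counted among the pericentral genes and was also called lower (log2 difference -1.32, adjusted p = 0.00929). Bmp7 was 1.26-fold lower. Adjusted p for Fgfr1, Avpr1a and Bmp7 ranged from 0.0104 to 0.0429.

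Solute carriers gave 2 rises and 2 falls of 49. Beside Slc6a6, the amino acid transporter gene Slc38a4 rose 1.35-fold (adjusted p = 0.0387, limma), while Slc16a12 fell by 0.75 on the log2 scale. Slc43a2 was 2.13-fold lower, with 4 of 5 2c and 1 of 5 8c arrays above background, and reached the filter only through the 2c arrays. The efflux pump gene Abcc1 was 1.39-fold lower, with 4 of 5 2c and 3 of 5 8c arrays above background (adjusted p = 0.0466, limma). It was the only call among 24 genes of its list. In mitochondrial and fat metabolism, Glud1, glutamate dehydrogenase, was 1.26-fold lower (2c 2.73 to 2.98, 8c 2.41 to 2.78; adjusted p = 0.0266) and the phosphatase gene Pdp1 1.33-fold lower, of 40 genes tested. Decr1, a dienoyl-CoA reductase, rose 1.26-fold and Acsm2, a medium-chain acyl-CoA synthetase, was 1.69-fold lower, of 39. Amacr, a racemase of peroxisomes used in bile acid synthesis, was 1.35-fold lower. Gchfr, the regulator of GTP cyclohydrolase, rose 1.23-fold with pairs between 0.21 and 0.36 (adjusted p = 0.0263).

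Other lists gave a few calls each. Gstp1, a glutathione transferase, was 2.92-fold lower without overlap, with 4 of 5 8c arrays above background (2c -4.75 to -3.42, 8c -6.59 to -4.91), and Ugdh, which makes the substrate of glucuronidation, was 1.25-fold lower. Vnn1, a pantetheinase, was 1.97-fold lower, with 4 of 5 8c arrays above background. Of 12 annexin and S100 genes 3 fell, and of 40 genes of the inflammatory response 2, against 1.58% of all tested features. Of these, Anxa2, Anxa3, Anxa5 and Il1a reached the filter only through the 2c arrays, which favours a fall. Anxa2 was at least 4.8-fold lower and Cxcl10 1.78-fold. Anxa5 was 2.67-fold lower, with 3 of 5 2c and 2 of 5 8c arrays above background, and Il1a 3.8-fold, with 4 of 5 and 1 of 5. Cotl1, an actin-binding protein of leukocytes, was 6.08-fold lower with 3 of 5 8c arrays above background. Itga9, an integrin, was 2.89-fold lower with 4 of 5, and Pla2g15, a lysosomal phospholipase, 1.44-fold. Igf2bp2 was 1.7-fold lower, with 3 of 5 2c and 1 of 5 8c arrays above background. Rab32 was 1.5-fold lower, with 2 of 5 and 1 of 5, so neither value is a bound. Among rises, the cell cycle inhibitor gene Cdkn2c and the repair gene Bard1 were 2.27-fold and 2.22-fold higher. Each was above background on 1 of 5 2c arrays and 4 of 5 8c arrays, and reached the filter only through the 8c arrays. The polarity gene Pard3 rose 1.26-fold with -0.00 on another probe.

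Several of the 30 lists with 0 calls cover large parts of hepatocyte function. Among them were 97 genes of the cytosolic ribosome (median 0.13, highest in experiment 4 at 0.34; 29 higher and 0 lower at an unadjusted p under 0.05, limma, against 1086 and 1451 of all 16925), 70 of the mitochondrial ribosome (0.06), 71 splicing factors (0.05), 46 proteasome genes (0.002) and 88 genes of protein folding and secretion (0.03). The same held for 48 genes of carbohydrate metabolism (-0.04), 34 of coagulation (-0.02), 24 of tryptophan and NAD metabolism (0.03), 47 liver transcription factors (0.07) and 22 clock genes (0.04). Histone genes had a median of 0.15 over 26 genes, from -0.10 to 0.29 between experiments. In simulated data with the same design, 34.3% of genes changed by a log2 difference of 0.5 were called, 76.1% at 1 and 98.5% at 2, so small changes in these lists could go uncalled.

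**Figure D5:**
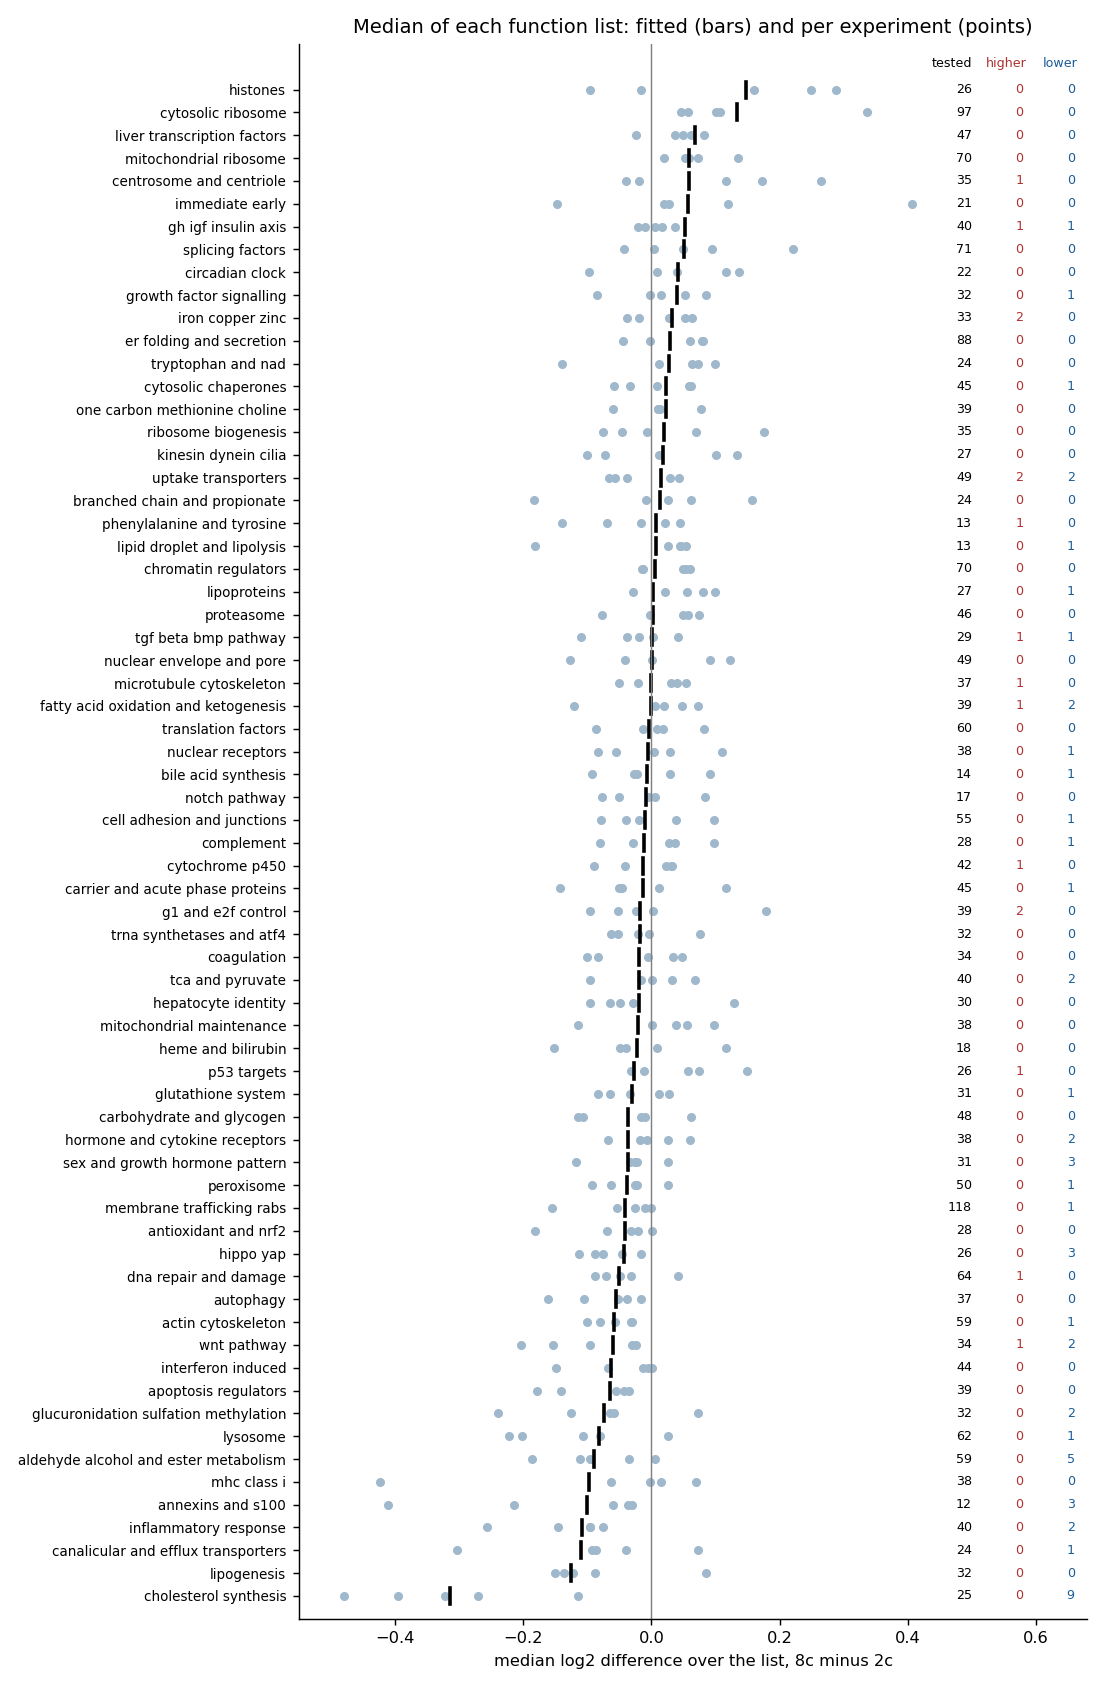
Median log2 difference between 8c and 2c for 67 function lists, fitted (black bars) and in each experiment (points), with the genes tested, higher and lower at adjusted p under 0.05 at the right. Cholesterol synthesis, at -0.31 with 9 lower, is the only list whose median lies beyond 0.15 from 0 with the scaling used; histones and the cytosolic ribosome also do with median scaling.

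The chromosomes did not stand apart. For 15899 features placed on the 20 autosomes and the X chromosome, the median log2 difference of a chromosome lay between -0.044 and 0.001, and between -0.130 and 0.074 in any 1 experiment. From 1.57% to 3.66% of the features of a chromosome were called. These medians are a description of relative levels, since each array was scaled to itself.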

How the data were processed

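RNA of sorted 2c, 4c and 8c rat hepatocytes was measured on 15 one-colour Cy3 arrays. Per the file headers, scanning was analysed with version 11.5.1.1 of Agilent's Feature Extraction, and the submitters' processing notes give 10.7.3.1. The deposited intensity is the background-subtracted, spatially detrended processed signal on a linear scale, without normalization between arrays. The deposited value table holds the processed signal per probe, and its log2 was used as an alternative.

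Of 62976 spots, 4259 controls and 264 to 539 outlier spots per array were left out, which gave 45598 probes, 39.5% to 47.4% of them well above background. The number of arrays limits the precision. Log2 signals were scaled to the 75th percentile of each array, taken over 16211 probes that no array had at background. A probe well above background on at least 5 arrays was tested, the brightest standing for a gene. Positions are those of rn4 in the files.

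limma 3.58.1 in R 4.3.3 was fitted to all 15 arrays, with the experiment as a block (two-sided, Benjamini-Hochberg over 16925 features). The pairing comes from the series' design of 5 independent experiments. Residuals of 2c and 8c correlated by 0.561, 0.778, 0.0388, 0.622 and 0.587 in experiments 1 to 5. The labels name no separate animals. With the block taking out each experiment's own level, p-values rest on the residual spread of the 2c, 4c and 8c arrays together, which limma partly shares across genes. They do not measure the spread of the 5 differences between 8c and 2c alone. A fit of the 2c and 8c arrays only called 105 genes. Slide 1, read in scan run 1, held the arrays of experiments 1 and 2 and, of experiment 3, those of 2c and 4c; the other arrays were on slide 2.

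Named were the 15 largest rises and 15 largest falls with the same sign in 5 experiments, a symbol and a signal on all 10 arrays, outside the reported and marker lists. Added were up to 8 each way with a dim lower group, up to 4 called members per function list, and Alb, Mki67, Glul and Clec4f. Members and lists were chosen with earlier results of these data known. The list of genes encoded by mitochondrial DNA had 0 members measured under its names. A few called genes enter the counts but are not reported here. The fit was tested on simulated data. Alternatives were the scaling, background correction, dim-probe filter, probe averaging, the deposited table, blocks, slides and left-out arrays. Python 3.11.15 and pandas 2.3.3 made the tables.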

Additional observations from a re-analysis of the deposited data

Results flagged for a closer look

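Of 186 groups of 5 arrays, 2 for each of the 93 named genes, 11 held an array set apart from the rest by Dixon's criterion (critical value 0.71); chance alone marks about 1 group in 20. Experiment 2, the experiment with the oldest animals, gave 6 of the 11, each of them low. In 8c its array was at -5.47 for Arhgef39 (the rest -3.89 to -3.50), -4.75 for Tubb6 (-2.58 to -2.11), -7.62 for Bard1 (-5.13 to -4.56) and -3.74 for Mki67 (-1.14 to -0.55). In 2c it was at -7.76 for Tubb6 (-5.10 to -4.27) and -4.37 for Ajuba (-3.15 to -2.76). Experiment 1 gave 4: Npr1 at -1.53 in 2c (-2.73 to -2.43), Decr1 at 2.75 in 2c (2.37 to 2.45), Ces1d at 3.02 in 2c (3.69 to 3.93) and Cryab at -3.24 in 8c (-4.70 to -4.32). The 8c array of experiment 3 was at -5.43 for Il1a (-8.38 to -7.66).

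Of the 67 function lists, 10 had medians that moved one way in both experiments with animals of 12 and 14 weeks and the other way in all 3 experiments with animals of 5 and 6 weeks. Over all experiments these medians were -0.013 for cytochrome P450 (-0.090 to 0.032 between experiments), -0.003 for translation factors (-0.087 to 0.082 between experiments), 0.000 for nuclear envelope and pore (-0.127 to 0.123 between experiments), 0.005 for chromatin regulators (-0.015 to 0.060 between experiments), 0.058 for centrosome and centriole (-0.039 to 0.264 between experiments). They were -0.000 for microtubule cytoskeleton (-0.051 to 0.054 between experiments), 0.022 for cytosolic chaperones (-0.059 to 0.061 between experiments), 0.029 for ER folding and secretion (-0.045 to 0.081 between experiments), -0.027 for p53 targets (-0.032 to 0.149 between experiments) and 0.017 for kinesin dynein cilia (-0.101 to 0.133 between experiments). The difference between the ages was not tested for these lists. Experiments 1 and 2, with the older animals, were also the only ones wholly on slide 1 and with acinar transcripts in both 2c and 8c. Age cannot be told apart from these.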

How the results depend on the processing

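The counts of genes higher and lower in 8c, 139 and 267, varied with the processing. Scaling to the 75th percentile of the full probe set gave 226 higher (192 lower). They were 65 and 117 with normexp background correction, 73 and 156 with no filter on dim probes, 75 and 144 for features that every array measured, and 60 and 45 with the 2c and 8c arrays only. They were 6 and 34 with no replicate block, 28 and 73 with the slide as a block and no replicate block, 0 and 0 within slide 1 or slide 2 alone, 0 and 0 when arrays carrying acinar transcripts were left out, and 2 and 7 without experiments 1 and 2. Leaving out 1 experiment at a time gave 49 to 114 higher and 51 to 191 lower. Before adjustment, at p under 0.05, limma counted 604 and 925 within slide 1, 560 and 1074 within slide 2, and 520 and 697 when arrays carrying acinar transcripts were left out. These fits hold 8, 7 and 9 arrays; the cause was not tested otherwise. Of the calls, 34.2% were rises, against 47.2% with quantile normalization, 46.7% with median scaling and 54.1% with the full probe set as the base of the percentile. The median over all features moved from -0.023 to 0.056 with that last scaling. All 406 called genes kept their direction except 8 with normexp and 1 with averaged probes, where a value existed. They had been called on the same arrays, which favours an unchanged direction. Signs turned for Ddx11 with the mean of its probes (-0.08), Mfsd4a with normexp (-0.07) and the uncalled Alb within slide 1 (0.15). Of the 92 named calls, 11 were kept without the replicate block, 48 with normexp and 92 with the deposited table. With normexp the named differences had a median of 0.58 times those reported. Function list medians moved beyond their spread in 43 of 67 lists with the percentile of the full probe set and in 15 with normexp. The interaction with age gave 0 calls under each setting run.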
